A study of Homo sapiens with 6 samples.

Results

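The enzymes that supply deoxynucleotides for DNA synthesis were followed in CAL51 cells with TREX1 targeted: RRM1, RRM2, TYMS, TK1, DUT, DTYMK, DCK and DCTPP1. These 8 genes were chosen by symbol for their roles, with earlier results of these data known. All 8 are among the 14788 genes of the deposited expression table, and all 8 passed the filter on low values that kept 13765 genes. CAL51 comes from a human triple-negative breast carcinoma and is an established line. Poly(A) RNA was sequenced from 6 libraries: 2 of control cells, 2 of TREX1 knockout cells made with a first guide RNA (KO-1) and 2 made with a second (KO-2), both brought in by a CRISPR v2 lentivirus. What the control cells carried is not stated in the sources used here. A note deposited with the files speaks of several knockout clones, but does not say whether KO-1 or KO-2 is 1 clone or a pool. The labels do not say that replicates were separate cultures. The p-values below therefore measure the spread between libraries, which may be technical.

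DNA is copied from 4 deoxynucleotides, which ribonucleotide reductase makes from ribonucleotides. The enzyme joins a large catalytic subunit, RRM1, to a small radical-bearing subunit, RRM2, which is abundant in S phase, while RRM2B is an alternative small subunit and a p53 target. Thymidine nucleotides are made by TYMS, which methylates dUMP, or salvaged by TK1, and DTYMK phosphorylates the product of both. DUT removes dUTP before it can enter DNA, DCK salvages deoxycytidine and other deoxynucleosides, and DCTPP1 hydrolyses dCTP and modified forms of it. Several of these genes are known for transcription that peaks around S phase.

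Reads recovered from the deposited values came to between 13222933 and 25785055 per library. A member had between 679 reads (DCTPP1 in KO-2 replicate 1) and 11559 reads (RRM2 in control replicate 2), well above the detection floor of 3 reads. The shallowest library, KO-2 replicate 1, stood apart: 61 genes were at 0 reads there, and 5 to 16 elsewhere. Over 12216 genes, the log2 difference between replicates had an SD of 0.16 with control cells, 0.19 with KO-1 and 0.29 with KO-2. TREX1 itself was not analysed here, so the knockout was not checked at its own transcript. Of 8 carcinoma line markers in the table, KRT8, KRT18, KRT19 and EPCAM were at 261 CPM (the read count scaled for library size) or more in every library. The summed level of the 8 was 2339 to 2377 CPM with control cells, 2950 to 2960 with KO-1 and 2917 to 2952 with KO-2. ESR1 and PGR, which triple-negative tumours lack, had no row in the deposited expression table, and ERBB2 lay between 163 and 199 CPM. Of 16 markers of other cell types 7 were in the table, and their sum was 129 to 133 CPM with control cells, 126 to 135 with KO-1 and 106 to 115 with KO-2. PTPRC of leukocytes lay between 15.4 and 20.2 CPM, and CD14 of monocytes at 0.893 CPM or less. The highest of the 7 were ACTA2, between 29.5 and 54.6 CPM, and PDGFRB, between 36.4 and 46.1. CDH1, the lowest of the 8 carcinoma line markers, lay between 28.5 and 42.3 CPM. The part of these markers in the results was not tested.

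All 8 genes had a lower mean in the 4 knockout libraries than in control, and 5 of them passed the test: RRM2, DUT, DTYMK, RRM1 and TK1. RRM2 fell by 44.8%, and the other 4 fell by 15.7% to 20.6%. TYMS, DCK and DCTPP1 did not pass. The test was limma's, with p-values adjusted by the Benjamini-Hochberg method over all 13765 genes and a gene called at an adjusted p below 0.05. In the mean of both guides against control, 14.9% of all genes were called lower, 14.6% higher and 29.6% in either direction. Higher genes made up 49.4% of all calls, or 61.7% with library medians set equal, and 5 members were called lower under both scalings. The members' median log2 fold change was -0.25, beside -0.01 over all genes tested. In 6 of the 8, all but TYMS and DCK, every knockout library lay below both control libraries, where 24.0% of all genes did so. The count of members called lower fell when either control library was left out, as did the number called over all genes. In such a fit control is 1 library, assumed to vary like the libraries of the other groups. The fold changes stayed about as large there: RRM1 was at -0.23 and -0.27, TK1 at -0.27 and -0.23, and DTYMK at -0.28 in both. With no mean-variance trend 2 members were called lower, where 2201 of all genes were called in either direction.

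**Figure D1:**
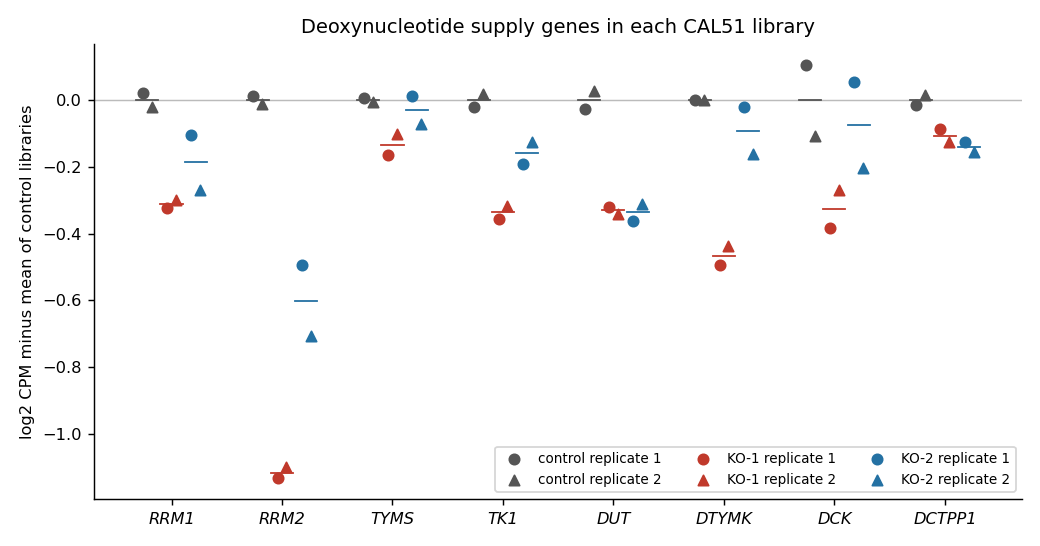
Level of each gene in each library, as log2 CPM minus the mean of the 2 control libraries (vertical axis); circles are replicate 1, triangles replicate 2, and short lines are group means. RRM2 lies lowest in all 4 knockout libraries, DUT is equally low with both guides, and the TYMS, DTYMK and DCK points of KO-2 lie near or among the control points.

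Promoter sequence is shown for genes whose behaviour differed most: RRM2, which fell furthest, TK1 and DTYMK, which fell less, DUT, which fell alike with both guides, and TYMS, which did not pass the test. Each sequence is the 250 bases before an annotated RefSeq start (GRCh38.p14), written 5′ to 3′ on the gene's strand. The 8 genes have 13 such windows. Capitals mark 3 kinds of word, searched on both strands. They are the CCAAT box (CCAAT), bound by NF-Y, 4 E2F words (TTTCCCGC, TTTCGCGC, TTTGCCGC and TTTGGCGC), and the CHR words TTTGAA and TTTAAA, of a kind found in cell cycle promoters.
RRM2, chr2:10122489-10122738, plus strand: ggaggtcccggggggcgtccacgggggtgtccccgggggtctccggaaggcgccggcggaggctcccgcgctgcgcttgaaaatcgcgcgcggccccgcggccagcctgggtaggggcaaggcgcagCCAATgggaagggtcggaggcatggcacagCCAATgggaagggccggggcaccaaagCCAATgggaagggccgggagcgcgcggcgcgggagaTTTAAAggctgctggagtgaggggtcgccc
TK1, chr17:78187053-78187302, minus strand: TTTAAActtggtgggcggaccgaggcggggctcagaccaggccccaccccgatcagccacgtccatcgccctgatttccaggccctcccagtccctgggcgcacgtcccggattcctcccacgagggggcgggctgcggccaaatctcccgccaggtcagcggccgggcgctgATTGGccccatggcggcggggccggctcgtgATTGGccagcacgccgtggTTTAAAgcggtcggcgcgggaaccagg
DTYMK, chr2:241686816-241687065, minus strand: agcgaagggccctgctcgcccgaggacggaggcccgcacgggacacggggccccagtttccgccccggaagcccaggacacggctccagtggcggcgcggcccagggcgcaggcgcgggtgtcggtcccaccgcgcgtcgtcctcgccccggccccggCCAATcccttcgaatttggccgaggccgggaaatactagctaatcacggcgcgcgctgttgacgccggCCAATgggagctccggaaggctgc
DUT, chr15:48331947-48332196, plus strand: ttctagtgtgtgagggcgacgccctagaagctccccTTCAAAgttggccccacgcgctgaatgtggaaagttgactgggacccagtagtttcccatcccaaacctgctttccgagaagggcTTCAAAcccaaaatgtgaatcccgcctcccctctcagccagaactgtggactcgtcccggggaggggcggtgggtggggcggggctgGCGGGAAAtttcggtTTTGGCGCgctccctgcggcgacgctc
TYMS, chr18:657403-657652, plus strand: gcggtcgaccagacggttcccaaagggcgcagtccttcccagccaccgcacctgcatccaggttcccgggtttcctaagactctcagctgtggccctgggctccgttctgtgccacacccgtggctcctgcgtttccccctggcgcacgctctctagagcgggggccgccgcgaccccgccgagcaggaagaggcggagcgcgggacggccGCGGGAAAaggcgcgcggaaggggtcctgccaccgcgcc

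The RRM2 window holds 3 CCAAT boxes, starting 123, 93 and 66 bases before the start, and a TTTAAA 30 bases before it. TK1 holds 2 CCAAT boxes, both as ATTGG, 77 and 46 bases before its start, and a TTTAAA at 250 and at 27 bases. DTYMK has 2 CCAAT boxes, at 92 and 24 bases. At least 1 CCAAT box is in 32.8% of the 15701 windows of genes tested, at least 2 are in 11.3% and at least 3 in 3.99%. DUT has 2 E2F words, 42 and 27 bases before the start of this transcript, and TYMS has 1 at 39 bases. An E2F word is in 4.06% of windows of genes tested. A CHR word is in at least 1 window of 4 members, RRM1, RRM2, TK1 and DUT. It is in 15.4% of windows of genes tested, a share per window and not per gene. Where a gene has several windows, the one with the most words is shown: the other 3 windows of DUT hold none, the other window of RRM2 holds 1 CCAAT box, and that of TK1 holds 1 TTTAAA. DCK and DCTPP1 hold none of these words in their windows. The matches describe letters only, and the pair with E2F words, DUT and TYMS, differed in whether they passed the test.

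RRM2, the small subunit gene of ribonucleotide reductase, lies on chromosome 2 from 10120698 to 10131419 (GRCh38, GENCODE v29, plus strand). The control libraries read 8.82 and 8.79 log2 CPM, the KO-1 pair 7.67 and 7.70 and the KO-2 pair 8.31 and 8.10. The groups did not overlap, and KO-2 lay between control and KO-1. RRM2 had a log2 fold change of -0.86 ± 0.06 (SE) for both guides (limma adjusted p = 7.7e-06) and ranked 147 from the lowest of 13765 genes. With KO-1 it was -1.12 ± 0.07 (adjusted p = 3.9e-06), and RRM2 fell by 53.8%. With KO-2 it was -0.60 ± 0.07 (adjusted p = 0.00037), and it fell by 34.1%. The fit shares a gene's variance over the groups, so the SE with KO-2 does not measure the spread of KO-2 alone. The SD of RRM2 between replicates was 0.02 with KO-1 and 0.15 with KO-2. The KO-2 call was lost with no mean-variance trend (adjusted p = 0.056), and no other alternative setting ended a call of RRM2 against control. An annotated protein-coding gene on the same strand, AC007240.1, shares 1077 bases of RRM2 exon, and 3 annotated pseudogenes carry its name, so its reads are uncertain to that extent.

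RRM1, the large subunit gene, lies on chromosome 11 from 4094707 to 4138876 (plus strand). It stood at 7.93 and 7.89 log2 CPM in control cells, at 7.59 and 7.61 with KO-1, and at 7.81 and 7.64 with KO-2. Both knockout groups lay below control, and the KO-2 libraries were farther apart than either other pair. The log2 fold change was -0.25 ± 0.06 for both guides (adjusted p = 0.0069) and -0.31 with KO-1 (0.0044), both called. With KO-2 it was -0.19 (adjusted p = 0.070), and -0.27 without KO-2 replicate 1, where KO-2 is 1 library. The call for both guides ended when control replicate 1 (0.11) or control replicate 2 (0.060) was left out, and that for KO-1 when control replicate 1 (0.061) or KO-1 replicate 1 (0.062) was, and also with no mean-variance trend (0.064).

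The subunit transcripts did not move by the same amount. Per kilobase of merged exon, control cells held 116 ± 1.45 CPM of RRM2 and 71.7 ± 1.52 of RRM1 (SD, n = 2). KO-1 cells held 53.4 ± 0.896 and 57.8 ± 0.748, and KO-2 cells 76.5 ± 7.95 and 63.1 ± 5.10. The ratio of RRM2 to RRM1 per kilobase was 1.60 and 1.62 with control cells, 0.922 and 0.927 with KO-1 and 1.23 and 1.19 with KO-2. The groups did not overlap. Per length RRM2 was above RRM1 in control and KO-2 and below it in KO-1, an order in KO-1 that rests on the exon lengths (3.859 kb for RRM2 and 3.359 kb for RRM1). Without division by length, RRM2 minus RRM1 was still 0.08 and 0.09 in log2 CPM in the KO-1 libraries. The difference in log2 CPM, RRM2 minus RRM1, changed by -0.61 between control and knockout libraries. An exact two-sided permutation test of 4 against 2 libraries gave p = 0.133, the smallest it allows, and 0.229 after adjustment over 12 such differences.

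RRM2B, the alternative small subunit, moved the other way. It read 6.09 and 6.05 log2 CPM with control cells, 6.45 and 6.50 with KO-1 and 6.31 and 6.39 with KO-2. Every knockout library lay above both controls, as for 22.3% of all genes. RRM2B rose by 0.35 ± 0.06 for both guides (adjusted p = 0.0019), by 0.41 with KO-1 (0.0016) and by 0.28 with KO-2 (0.020). The ratio of RRM2 to RRM2B per kilobase was 8.83 and 8.95 with control cells, 3.10 and 3.07 with KO-1 and 5.33 and 4.35 with KO-2. The log2 difference of this pair changed by -1.20, with the same exact permutation p of 0.133 (adjusted 0.229). Among 15 other reference targets of p53, 13 were higher and 1 lower for both guides, with a median of 1.03. Of all genes, 14.6% were called higher and 14.9% lower in that comparison.

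**Figure D2:**
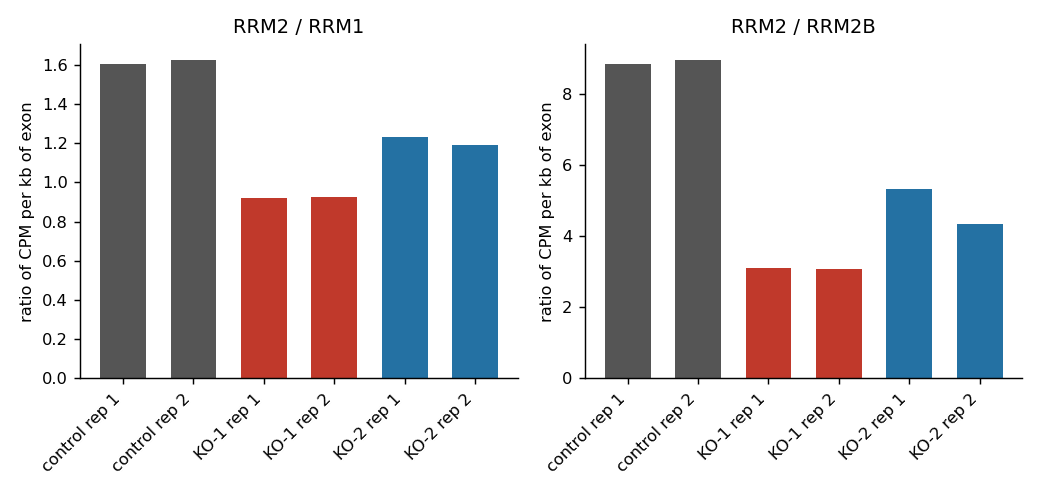
Ratio of RRM2 to RRM1 (left) and of RRM2 to RRM2B (right), each as CPM per kilobase of merged exon, with 1 bar per library and axes from 0. The left ratio is 1.60 or more in control and 0.927 or less in KO-1, the right ratio is 8.83 or more in control and 3.10 or less in KO-1, and KO-2 lies between in both.

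The thymidylate genes differed among themselves. TYMS, which makes dTMP from dUMP, lies on chromosome 18 from 657604 to 673578 (plus strand). Its log2 CPM values were 6.09 and 6.08 with control cells, 5.92 and 5.98 with KO-1 and 6.10 and 6.01 with KO-2. KO-1 lay below control, and KO-2 replicate 1 was above both control libraries. The log2 fold change was -0.08 ± 0.06 for both guides (adjusted p = 0.37), with a 95% interval from -0.22 to 0.06. It was -0.13 with KO-1 (adjusted p = 0.20) and -0.03 with KO-2 (0.82). Exons of ENOSF1, on the opposite strand, share 967 bases with TYMS, and the strand setting of the counting is not given, so reads of both may be mixed. ENOSF1 was called at -0.39 for both guides (adjusted p = 0.0094), a call that ended without control replicate 1 (0.16).

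TK1, the cytosolic thymidine kinase of salvage, lies on chromosome 17 from 78174075 to 78187233 (minus strand). Control cells gave 6.966 and 7.005 log2 CPM, KO-1 cells 6.63 and 6.67, and KO-2 cells 6.79 and 6.86. The 3 groups did not overlap. TK1 was called for both guides at -0.25 ± 0.05 (adjusted p = 0.0066) and for KO-1 at -0.34 (0.0026). KO-2 was at -0.16 (adjusted p = 0.11), and at -0.19 without KO-2 replicate 2, where KO-2 is 1 library. Leaving out control replicate 1 (0.077) or control replicate 2 (0.11) ended the call for both guides, and none of 15 alternatives ended that for KO-1.

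DTYMK, the thymidylate kinase that serves both routes to dTTP, lies on chromosome 2 from 241675742 to 241686991 (minus strand). It stood at 6.55 log2 CPM in both control libraries, at 6.06 and 6.11 for KO-1 and at 6.53 and 6.39 for KO-2. KO-1 was far below the rest, and KO-2 lay just under control. With KO-1 the log2 fold change was -0.47 ± 0.07 (adjusted p = 0.00099), second in size to RRM2 among the members, and none of 15 alternatives ended that call. With KO-2 it was -0.09 (adjusted p = 0.42). Both guides together gave -0.28 (adjusted p = 0.0076), a call that ended without control replicate 1 (0.10) and without control replicate 2 (0.091).

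DUT, the dUTPase, lies on chromosome 15 from 48331011 to 48343373 (plus strand). Its log2 CPM was 6.44 and 6.50 with control cells, 6.15 and 6.13 with KO-1 and 6.11 and 6.16 with KO-2. The 4 knockout libraries lay close together and below control. DUT was called for both guides at -0.33 ± 0.06 (adjusted p = 0.0021), for KO-1 at -0.33 (0.0046) and for KO-2 at -0.34 (0.0092). Leaving out control replicate 2 ended the calls for both guides (0.060) and KO-1 (0.073), leaving out KO-1 replicate 2 that for KO-1 (0.055), and leaving out control replicate 1 or 2 that for KO-2 (0.089 and 0.12). The KO-2 call also ended with no mean-variance trend (adjusted p = 0.070). An antisense gene shares 533 bases of DUT exons, and of 8 annotated pseudogenes with its name 0 have a row in the table, so DUT reads are uncertain to that extent.

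DCK, the deoxycytidine kinase, lies on chromosome 4 from 70992538 to 71030914 (plus strand). Control libraries read 6.04 and 5.82 log2 CPM, the KO-1 pair 5.55 and 5.66 and the KO-2 pair 5.99 and 5.73. The control pair and the KO-2 pair each spread more than for any other member, and KO-2 overlapped control. KO-1 was called at -0.33 ± 0.11 (adjusted p = 0.038). That call ended with library medians set equal (0.068), without control replicate 1 (0.32) or 2 (0.053), without KO-1 replicate 1 (0.24) or 2 (0.11), and with no mean-variance trend (0.14). Both guides together gave -0.20 (adjusted p = 0.12), and -0.26 without KO-2 replicate 1, where KO-2 is 1 library. MOB1B, which shares 199 bases of exon with DCK on the same strand, stood at 0.05 (adjusted p = 0.59).

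DCTPP1, the dCTP pyrophosphatase, lies on chromosome 16 from 30423619 to 30430075 (minus strand). It read 5.82 and 5.84 log2 CPM with control cells, 5.74 and 5.71 with KO-1 and 5.70 and 5.68 with KO-2. Every knockout library was below both controls by a small amount. The log2 fold change was -0.12 for both guides (adjusted p = 0.18), with a 95% interval from -0.27 to 0.02, and DCTPP1 was not called in any comparison or alternative setting. ZNF771, on the opposite strand, shares 666 bases of exon with it, so reads of both may be mixed. ZNF771 was called at -0.47 for both guides (adjusted p = 0.026), a call that ended without control replicate 1 (0.24) or 2 (0.094) and without KO-1 replicate 1 (0.088) or 2 (0.077).

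The guides were then compared with each other. With KO-1, 6 of the 8 members were called lower, against 15.1% of all genes, and in all 8 both KO-1 libraries lay below control, against 36.2% of all genes. Higher genes were 49.0% of all KO-1 calls, or 60.5% with library medians set equal, where 5 members were called. With KO-2, 2 members were called lower, RRM2 and DUT, against 8.19% of all genes, and in 6 both libraries lay below control, against 30.9%. For KO-2 the share of higher calls was 51.6%, or 64.5% with library medians set equal. The KO-2 count fell when a control library was left out and rose when a KO-2 library was, as did the number called over all genes. In such a fit 1 group is 1 library.

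**Figure D3:**
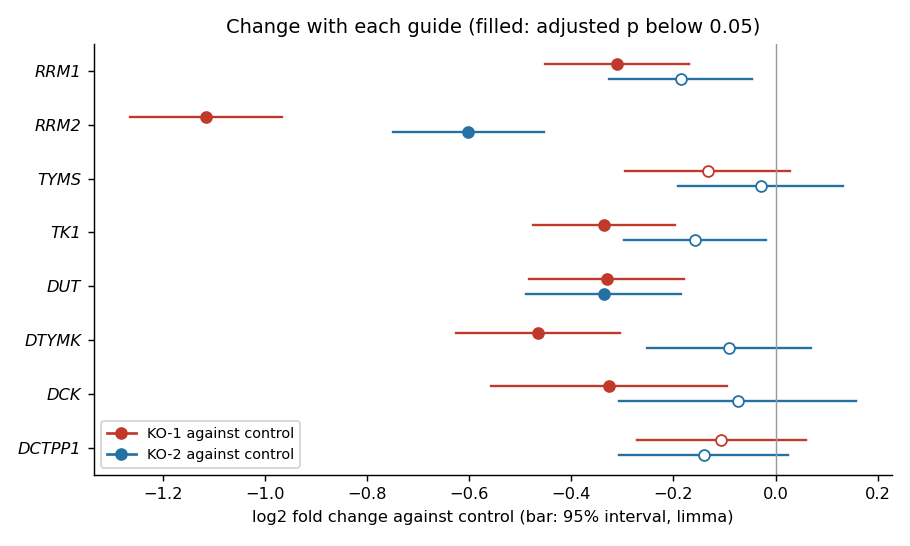
Log2 fold change of each gene with KO-1 (red) and KO-2 (blue) against control, with 95% intervals from limma; filled points have an adjusted p below 0.05. KO-1 has 6 filled points and KO-2 has 2, and the points of DUT nearly coincide.

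Both comparisons share the control libraries, so the difference between guides was tested directly. There 0.334% of all genes were called higher in KO-2 than in KO-1, 0.806% lower and 1.14% in either direction. RRM2 was higher in KO-2 by 0.51 ± 0.07 (SE, adjusted p = 0.0066) and DTYMK by 0.37 ± 0.07 (0.038). In 6 members both KO-2 libraries lay above both KO-1 libraries, as for 22.3% of all genes. TK1 (0.18, adjusted p = 0.19), DCK (0.25, 0.25), RRM1 (0.12, 0.34) and TYMS (0.10, 0.49) were not called. For DUT the difference was -0.01, with a 95% interval from -0.16 to 0.15, and for DCTPP1 it was -0.03, from -0.20 to 0.13. Both calls ended without KO-1 replicate 1 (0.31 for RRM2 and 0.40 for DTYMK) and KO-1 replicate 2 (0.27 and 0.41), and DTYMK's also without control replicates 1 and 2 (both 0.12). Without KO-2 replicate 1 the TK1 difference was 0.21. Without KO-2 replicate 2 that of RRM1 was 0.21 and that of DCK 0.38. KO-2 is then 1 library, assumed to vary like those of the other groups.

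In the authors' deposited table the members past a false discovery rate of 0.05 were RRM1, RRM2, TK1, DUT, DTYMK and DCK for KO-1, RRM2 and DUT for KO-2, and RRM2 and DTYMK between the guides. The authors' deposited table gives RRM2 a log2 fold change of -1.12 with KO-1 (false discovery rate 3.7e-07) and -0.60 with KO-2 (0.00010).

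Members were next set against S phase genes measured in the same libraries. For both guides against control, 14.9% of all genes were called lower and 14.6% higher. Of 22 S phase reference genes, none of them a member, 18 were called lower and 0 higher for both guides, with a median of -0.34. That count was 11 without control replicate 1, and 8 without control replicate 2 or with no mean-variance trend. Their summed level was 3589 to 3611 CPM with control cells, 2711 to 2712 with KO-1 and 2975 to 3197 with KO-2. Of 16 G2/M genes 6 were lower and 0 higher, with a median of -0.15. The G2/M count was 3 without control replicate 2 or with no mean-variance trend, and 12 without KO-2 replicate 1. Fewer cells in S phase and less transcript per cell cannot be told apart in bulk RNA. Relative to the mean log2 CPM of the 22 S phase genes, RRM2 stood at 1.87 ± 0.01 with control cells, 1.22 ± 0.01 with KO-1 and 1.51 ± 0.07 with KO-2 (SD, n = 2), so it was lower in every knockout library on this scale too. TYMS was higher on it, at -0.85 with control cells, -0.52 ± 0.03 with KO-1 and -0.63 ± 0.02 with KO-2. DCTPP1 was also higher, by 0.36 with KO-1 and 0.10 with KO-2, and so was RRM1, by 0.15 and 0.06. DTYMK matched the S phase genes with KO-1, where its relative level changed by -0.00, and was 0.15 higher with KO-2. For DUT the relative change was 0.13 with KO-1 and -0.09 with KO-2. The lowest of the 22 S phase genes, E2F1, had a log2 fold change of -0.91 for both guides, where RRM2 had -0.86. RRM2 moved further down than the mean of the S phase genes in all 4 knockout libraries. DUT did so in its KO-2 mean only. There KO-2 replicate 2, at -0.48 on this scale, lay between the control libraries (-0.50 and -0.43). The exact permutation p was 0.133, the smallest possible, for RRM2, TYMS, RRM1 and DCTPP1 (adjusted 0.229), and lay between 0.267 and 0.933 for the other 4 members.

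**Figure D4:**
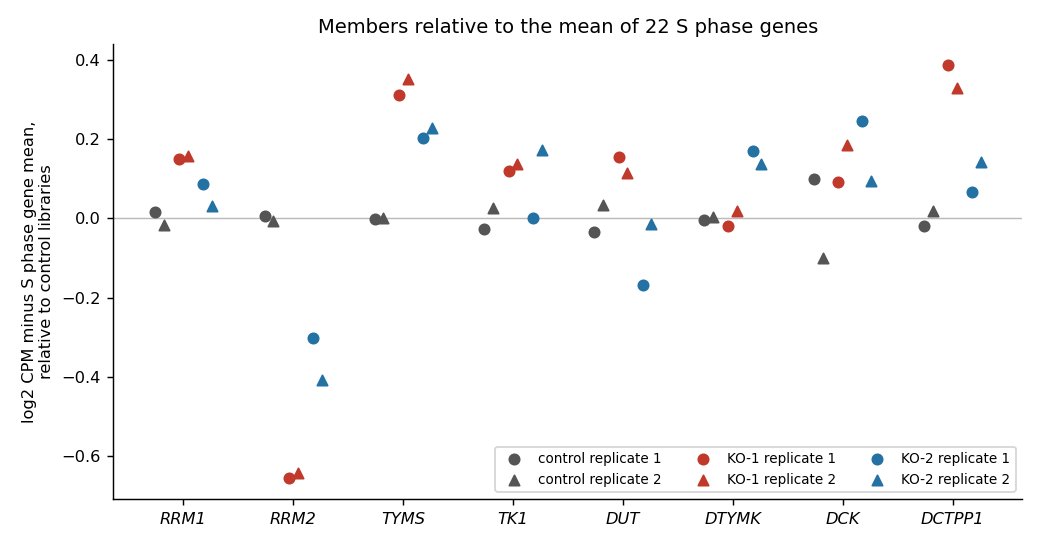
Level of each gene minus the mean log2 CPM of 22 S phase reference genes in the same library, set to 0 at the control mean (vertical axis); circles are replicate 1 and triangles replicate 2. RRM2 lies below control in all 4 knockout libraries, and RRM1, TYMS and DCTPP1 lie above control in all 4.

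The rest of the nucleotide pathway was described by lists, with counts for both guides against control, to be read beside the 14.9% of all genes called lower and 14.6% called higher. Of 16 genes of the folate and thymidylate cycle 4 were lower and 0 higher, with a median of -0.17. SHMT1, the cytosolic serine hydroxymethyltransferase that feeds thymidylate synthesis, was called at -0.64 (adjusted p = 0.00042). De novo pyrimidine synthesis had 3 of 5 genes lower and 0 higher, with a median of -0.30. They were the CTP synthases CTPS1 (-0.37, adjusted p = 0.00071) and CTPS2 (-0.39, 0.0022), and CAD (-0.30, 0.0079), which begins the pathway and lost its call without control replicate 2 (0.13) and KO-1 replicate 2 (0.050). In purine synthesis and salvage 7 of 18 were lower and 0 higher, with a median of -0.23. One of them was IMPDH2, of guanine nucleotide synthesis, at -0.30 (adjusted p = 0.0031, and 0.064 without control replicate 1).

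Among 30 other kinases, salvage enzymes and carriers 3 were higher and 4 lower, shares no larger than those of all genes, with a median of -0.07. The higher ones were RRM2B, the guanylate kinase GUK1 (0.35, adjusted p = 0.0011) and the mitochondrial adenylate kinase AK3 (0.45, 0.00068). UCK1, a uridine-cytidine kinase, was called at -0.42 (adjusted p = 0.0025, and 0.078 without control replicate 1). Among 22 genes of breakdown and pool cleaning 5 were lower and 1 higher, with a median of -0.12. The higher one was NT5E, which releases nucleosides at the cell surface, at 0.54 (adjusted p = 7.2e-05).

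SAMHD1, which hydrolyses deoxynucleotides, read 5.50 and 5.52 log2 CPM with control cells, 5.09 and 5.22 with KO-1 and 5.18 and 5.08 with KO-2. All 4 knockout libraries lay below control. It was called at -0.37 ± 0.08 for both guides (adjusted p = 0.0053), and the call ended without control replicate 1 (0.078) or 2 (0.080). Of 9 genes of the thioredoxin and glutaredoxin systems, not all of them electron donors of ribonucleotide reductase, 3 were higher and 1 lower. Their median was 0.00. The higher ones were TXN, TXNRD1 and GLRX5 (0.21, 0.23 and 0.23) and the lower one TXN2 (-0.38), and without control replicate 1 all 4 calls ended (adjusted p = 0.31, 0.12, 0.16 and 0.080). Leaving out 1 control library moved several list counts: without control replicate 1, lower genes were 1 for folate, and 0 for the kinase and salvage list, for breakdown and for purines.

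**Figure D5:**
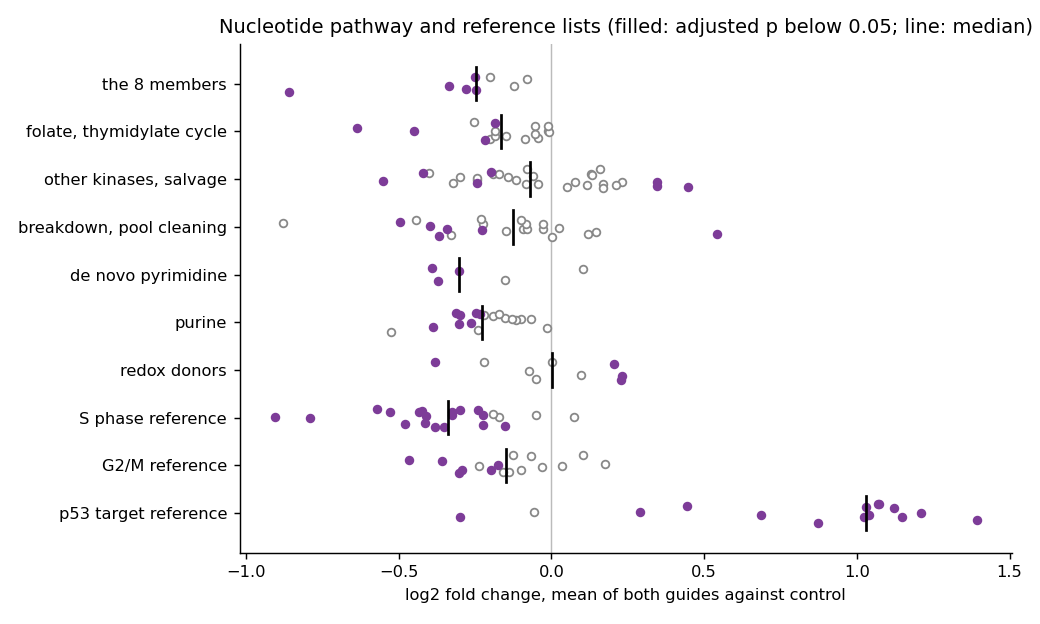
Log2 fold change of each tested gene for the mean of both guides against control, by list; filled points have an adjusted p below 0.05 and vertical lines are medians. The members' median of -0.25 lies between those of the folate (-0.17) and purine (-0.23) lists and those of the pyrimidine (-0.30) and S phase (-0.34) lists. The p53 targets lie at a median of 1.03.

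Across the 6 libraries the members' mean centred log2 CPM was 0.21 and 0.19 with control cells, -0.21 and -0.18 with KO-1 and 0.04 and -0.05 with KO-2. Pearson r between pairs of members ranged from 0.36 (DCK and DCTPP1) to 0.97 (RRM1 and RRM2), as a description over 6 libraries that share the difference between control and knockout. The genes outside the members most like this profile were MRPL40, PRIMPOL, PSME3, ERP29 and CHCHD3, with a Pearson r of 0.998 to 0.999 over the 6 libraries. Such likeness was common: 1237 of 12129 genes compared, or 10.2%, had an r of at least 0.9.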

How the data were processed

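The submitters' processing notes name fastp, STAR 2.7, featureCounts (Subread 2.0), edgeR and hg38; annotation, strand setting and gene filter are not stated in the sources used here. The authors deposited log2 CPM values per gene and library, and a table of their own comparisons with log2 fold changes, p-values and false discovery rates. Taking off the prior of 0.102 CPM gave whole reads for 100% of values (tolerance 0.01 reads). Tests covered genes at a log2 CPM of 0 or more in 2 or more of 6 libraries (13765, with 1023 removed). To the deposited values limma (version 3.58.1, R 4.3.3) fitted 1 mean per group over all 6 libraries with a mean-variance trend (3 residual and 8.02 prior degrees of freedom). The prior inside the logarithm understates fold changes of genes with few reads. In simulated data for both guides against control (13765 genes, 200 changed), 79% of log2 changes of 0.5 and 93% of changes of 1 were recovered, with 4 false calls. The simulation used 1 dispersion for all genes and groups. In the data the spread between replicates differed between groups, so these rates may not hold there. Exons, overlaps and lengths came from GENCODE v29 (GRCh38), and promoters from RefSeq (GRCh38.p14). Members and lists were chosen with earlier results of these data known. Genes named from a pathway list are among its called genes, at most the 4 with the smallest p in each direction, with RRM2B and SAMHD1 always; 1 further gene of the rule is not reported here. The 5 genes most like the members' profile are named by rank, and ENOSF1, MOB1B and ZNF771 for their overlap with members. Alternatives were other filters, scalings, pseudocounts and variance models, the replicate block, only the groups compared, and each library left out. Mouse and single-cell parts of the study were not analysed here.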

Additional observations from a re-analysis of the deposited data

Results flagged for a closer look

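RRM2 and DTYMK differed between the guides in the direct test of KO-2 against KO-1, where 0.334% of all genes were called higher and 0.806% lower. RRM2 was higher in KO-2 by 0.51 ± 0.07 on the log2 scale (SE, limma adjusted p = 0.0066) and DTYMK by 0.37 ± 0.07 (0.038), and both had lower means than control in both knockouts. In the same test 4 of 22 S phase reference genes were called higher, 0 lower and the rest not called, and of 15 p53 targets 7 were called lower, 0 higher and the rest not called. Their part in the difference was not tested.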

How the results depend on the processing

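Of the members' values under alternative settings, 423 kept direction and call, 35 lost a call, 8 gained 1 and 6 changed sign, all of the last in values that were not called. With no mean-variance trend 2201 genes were called for both guides (2 members lower), 2345 for KO-1 (4 members lower), 162 for KO-2 (0 members) and 1 between the guides (0 members), where the values above are 4068, 4089, 2329 and 157. In that setting RRM1, TK1 and DTYMK lost the call for both guides (adjusted p = 0.076, 0.051 and 0.055). Fitting only the groups compared called 6259, 1371 and 48 genes for KO-1, KO-2 and KO-2 against KO-1, with 1 member in the last, and gives no value for both guides, which use all groups. With the replicate block, which the labels do not describe as a pairing and for which same-numbered deviations correlated at -0.07 to 0.04, 3782, 3829, 2054 and 105 genes were called, and DTYMK was lost between the guides (adjusted p = 0.065), leaving 1 member. Leaving out each library in turn gave 1286 to 6075 calls for both guides (1 to 6 members lower), 1694 to 6255 for KO-1 (4 to 6), 362 to 4565 for KO-2 (1 to 3) and 0 to 3170 between the guides (0 to 4 members higher). TYMS with KO-2 was 0.0113 with library medians set equal and ranged from -0.0706 to 0.0122 over the libraries left out, DCK with KO-2 from -0.20 to 0.06 (0.03 without control replicate 1), and DUT between the guides from -0.0303 to 0.0187 (0.0034 without KO-1 replicate 1). Quantile normalization and voom on recovered reads called RRM1 with KO-2 (0.028 and 0.045). The causes were not tested. With 2 libraries per group, the differences of TYMS, DCK and DCTPP1 for both guides were not resolved. The part of depth in this was not tested.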
